A study of Arabidopsis thaliana with 4 samples.

Results

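The transcripts described here are those of HHO1 (AT3G25790), HHO2 (AT1G68670) and HHO3 (AT1G25550), 3 members of the HRS1 and HHO family of Arabidopsis. They were identified by locus in the platform annotation, where each had 1 probe set naming that gene alone, out of 13436 such probe sets and 22746 probe sets in all without controls. All 3 lay above the low-signal filter described in the processing section. RNA came from whole roots cut from seedlings at 5 dai, of the nlp7-1 mutant (2 samples) and of the wild type (WT, 2 samples), all labelled as Col-0 and all grown without treatment on the same MS agar at 22 °C with 16 h days. The labels name 1 mutant allele of NLP7, and each sample pooled the roots of about 60 seedlings. Each sample was hybridised to 1 Affymetrix ATH1 array, and values are MAS5 signals on a linear scale.

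HHO proteins, also called NIGT1, are GARP-type transcription factors that act mainly as repressors. Nitrate induces their genes through the nitrate-signalling factor NLP7 and related NLP proteins, and HHO proteins then repress nitrate uptake genes such as NRT2.1, which closes a negative feedback loop. They also repress SPX genes, whose products hold back the phosphate starvation regulator PHR1, and so connect nitrate supply to phosphate uptake. The MS medium contains both nitrate and ammonium, and no nitrate or phosphate treatment was applied.

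The 4 arrays had median signals between 97.5 and 100.8. Across the probe sets kept, signals correlated at r = 0.986 between the nlp7-1 samples, at 0.978 between the WT samples and at 0.961 to 0.977 between samples of different genotype. NLP7 itself had no named probe set, so the mutated gene could not be used to check the labels. None of the root markers listed could be checked either, since 0 of 6 had a named probe set. Of 7 leaf markers, 3 had a named probe set, and their summed signal was 664 and 793 in nlp7-1 roots, against 813 and 1009 in WT roots. Both mutant sums lay below both wild-type sums, the same order as that of HHO2 below, and no marker was at 0. Genotypes did not overlap, in either direction, in 44.1% of all kept probe sets. LHCB4.1, which encodes a light-harvesting protein, had 224 and 296 in nlp7-1, against 336 and 479 in WT (log2 change -0.64 ± 0.21, SE; limma adjusted p = 0.265). LHCB4.2, of the same protein type, had a log2 change of -0.39 ± 0.25, with overlapping genotypes. RCA, which encodes Rubisco activase, overlapped as well, with 361 and 381 in nlp7-1, against 371 and 379 in WT. Their part in the results below was not tested.

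None of the 3 HHO genes passed the test between nlp7-1 and WT roots, and their estimated changes were small. HHO2 had a signal about 1.21-fold lower in the mutant, HHO3 about 1.09-fold higher and HHO1 1.03-fold higher. In limma at a Benjamini-Hochberg adjusted p under 0.05, 0 of the 3 passed, where 2.27% of the 13648 probe sets tested did. At an unadjusted p under 0.05, 1 of the 3, HHO2, passed, where 1802 of the 13648 did.

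HHO2, which acts together with HHO3 and HRS1 in restraining nitrate uptake, had signals of 333 and 327 in the nlp7-1 samples, against 401 and 398 in the WT samples. Both mutant samples were below both wild-type samples, and the replicates of each genotype lay close together. The log2 change was -0.28 ± 0.11 (SE, n = 2 each), with a 95% interval of -0.55 to -0.0072 and a limma adjusted p = 0.367. Taken between any nlp7-1 array and any WT array, the log2 difference ran from -0.30 to -0.26. The replicates of HHO2 differed by 0.026 in nlp7-1 and 0.011 in WT on the log2 scale, against medians over all kept probe sets of 0.13 in nlp7-1 and 0.17 in WT. Only 11.0% of the kept probe sets had a smaller replicate difference in nlp7-1, and 3.58% in WT. In these whole-root samples, fewer cells that hold a transcript and less of it per cell cannot be told apart. The standard error of the fit is larger than these differences because it takes in the spread of other probe sets of like signal.

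HHO3, a nitrate-induced repressor of the same group, had signals of 939 and 868 in nlp7-1 roots, against 833 and 829 in WT roots. The mutant samples were above the wild-type samples without overlap, but the gap between the lower mutant sample and the higher wild-type sample was smaller than the difference between the mutant samples. The log2 change was 0.12 ± 0.11 (SE, n = 2 each), with a 95% interval of -0.14 to 0.38 (limma adjusted p = 0.698). In fold terms this interval reached from 0.908 to 1.299. The log2 change was 0.063 without nlp7-1 replicate 1 and 0.18 without nlp7-1 replicate 2.

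HHO1, which in roots restrains primary root growth under low phosphate together with HRS1, had signals of 139.6 and 101 in nlp7-1, against 136 and 97.1 in WT. The genotypes overlapped, and replicate 1 was the higher sample in both. Replicate 1 exceeded replicate 2 by 1.38-fold in nlp7-1 and by 1.40-fold in WT, a larger replicate difference than that of 94.0% of kept probe sets in nlp7-1 and 89.8% in WT. Both samples numbered 1 lay above both samples numbered 2 in 18.3% of kept probe sets, so HHO1 is 1 of many with this order. The log2 change between genotypes was 0.045 ± 0.23 (SE, n = 2 each; limma adjusted p = 0.959). Its 95% interval, 0.699-fold to 1.52-fold, was the widest of the 3. The sign was negative when either nlp7-1 replicate 1 (-0.19) or WT replicate 2 (-0.20) was left out.

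**Figure D1:**
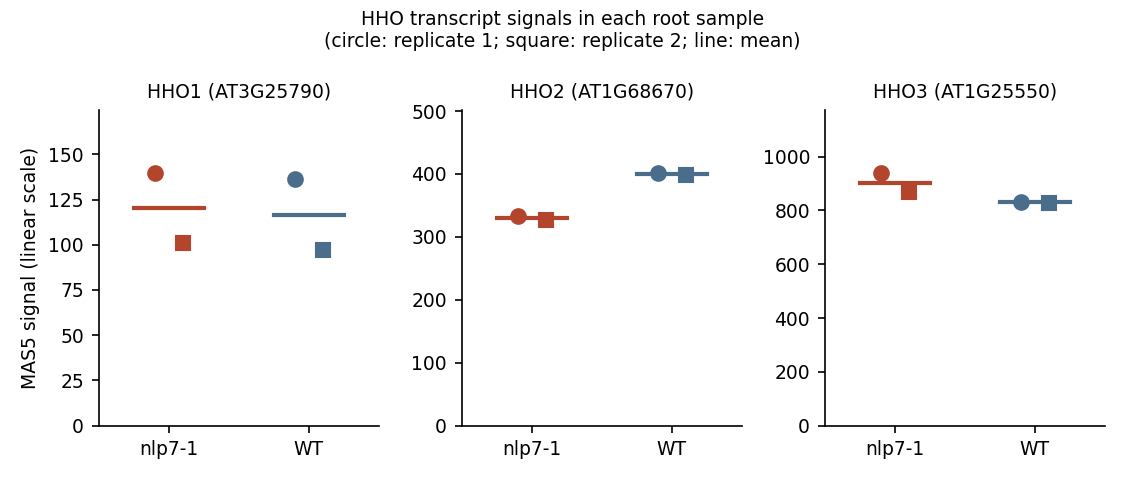
MAS5 signals (vertical axis, linear scale from 0, a scale of its own in each panel) of HHO1, HHO2 and HHO3 in the 2 nlp7-1 and 2 WT root samples; circles are replicate 1, squares replicate 2 and lines the mean of 2. The HHO2 samples at 333 and 327 in nlp7-1 sit below 401 and 398 in WT, while HHO1 separates by replicate number and not by genotype.

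Of the members, 2 of the 3 genes, HHO2 and HHO3, had genotypes that did not overlap, in opposite directions, where 44.1% of all kept probe sets did not overlap in either direction. The ratio of HHO3 to HHO2 within each array removes any scaling of the whole array. On the log2 scale it was 1.50 and 1.41 in nlp7-1, against 1.05 and 1.06 in WT, a difference of 0.40. The level of this ratio depends on the probes and cannot be read as relative abundance. With HHO3 higher and HHO2 lower in both mutant arrays, the order of the ratio between genotypes was fixed beforehand. The test of this ratio therefore adds nothing to the values of the 2 genes taken singly. An exact two-sided permutation test over the 4 samples gave p = 0.333, the smallest that 2 against 2 allow, and 0.667 after adjustment over the 3 pairs compared. The HHO2 to HHO1 and HHO3 to HHO1 ratios differed by -0.32 and 0.074 between nlp7-1 and WT (exact permutation p = 0.667 for each).

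HHO3 lies inside a stretch of chromosome 1 that was delimited by its rise in these same samples. There, 184 of 193 measured genes had higher signals in both nlp7-1 samples than in both WT samples, a count that describes the selection. Of all kept probe sets, 44.1% did not overlap in either direction. The log2 change of HHO3 itself was 0.12. The nearest 2 measured genes on one side are AT1G25520 and AT1G25530, and on the other AT1G25570 and AT1G26090. AT1G25530 and AT1G25570 are each separated from HHO3 by 1 protein-coding gene that was not measured under a gene name, PFT1 (MED25, a Mediator subunit) and TEM1 (a repressor of flowering).

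AT1G25530 had signals of 396 and 380.0 in nlp7-1, against 202 and 193 in WT, and AT1G25520 had 887 and 921, against 586 and 565. These 2 genes rose by 0.98 ± 0.12 and 0.65 ± 0.11 on the log2 scale (SE; limma adjusted p = 0.0201 and 0.0385). On the other side, AT1G25570 had 258 and 249 in nlp7-1, against 181 and 149 in WT, with a log2 change of 0.63 ± 0.14 (adjusted p = 0.110). AT1G26090 had 114 and 126 in nlp7-1, against 85.8 and 85.9 in WT, with a log2 change of 0.48 ± 0.15 (adjusted p = 0.231). In each of these 4 genes both mutant samples were above both wild-type samples, and 2 of the 4 passed the test, against 44.1% of all kept probe sets that did not overlap in either direction and 2.27% that passed. The 4 genes lie in a stretch delimited by its rise in these samples, so nothing is read from these counts. With a single nlp7-1 sample left, AT1G25530 and AT1G25520 no longer passed: the adjusted p was 0.113 and 0.242 without nlp7-1 replicate 1, and 0.0854 and 0.277 without nlp7-1 replicate 2. AT1G25520 also missed the threshold without a trend in the variance prior (adjusted p = 0.0725), and the change of AT1G26090 was 0.24 with a pseudocount of 100. Without WT replicate 1, AT1G25570 passed as well (limma adjusted p = 0.0249).

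The mean change of the 4 neighbours was 0.69 on the log2 scale, or 1.61-fold, which lies above the upper end of the interval of HHO3 (1.299-fold). Within each array, the log2 signal of HHO3 minus the mean log2 signal of the 4 neighbours was 1.56 and 1.42 in nlp7-1, against 2.01 and 2.10 in WT. The mutant arrays were lower without overlap, with means of 1.49 ± 0.09 in nlp7-1 and 2.06 ± 0.07 in WT (SD, n = 2). The difference of -0.57 ran from -0.68 to -0.45 over the 4 pairings of samples, a gap larger than the spread between the replicates. The exact two-sided permutation test could give no p below 0.333, which is the value it gave. Because the neighbours lie in a stretch delimited by its rise in these samples, the sign of this difference was largely set beforehand.

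The same quantity, a gene minus its 2 measured neighbours on each side, was also fitted in limma for all 7247 genes that have such neighbours, a test added after the data had been seen. HHO3 had -0.57 ± 0.14 (SE), with a 95% interval of -0.89 to -0.24, an unadjusted p = 0.00376 (rank 145 of 7247) and an adjusted p = 0.187, so it did not pass. In that fit 0.262% of genes passed, and 904 of the 7247 had an unadjusted p under 0.05. The neighbours of HHO3 lie in a stretch delimited by its rise in these same samples. A negative value for a gene there with a small change of its own is therefore built in, and these values are a description. HHO1 and HHO2, which lie elsewhere in the genome, had 0.25 ± 0.20 and -0.22 ± 0.16 relative to their own neighbours (limma adjusted p = 0.677 and 0.629).

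With 5 measured genes on each side, all 10 had a larger change than HHO3, between 0.39 and 1.02 with a median of 0.77. In all 10 the mutant samples were above the wild-type samples, and 6 of the 10 passed the test, against 44.1% of all kept probe sets that did not overlap and 2.27% that passed. All 10 lie in a stretch that was delimited by this same rise, so these counts are a description.

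**Figure D2:**
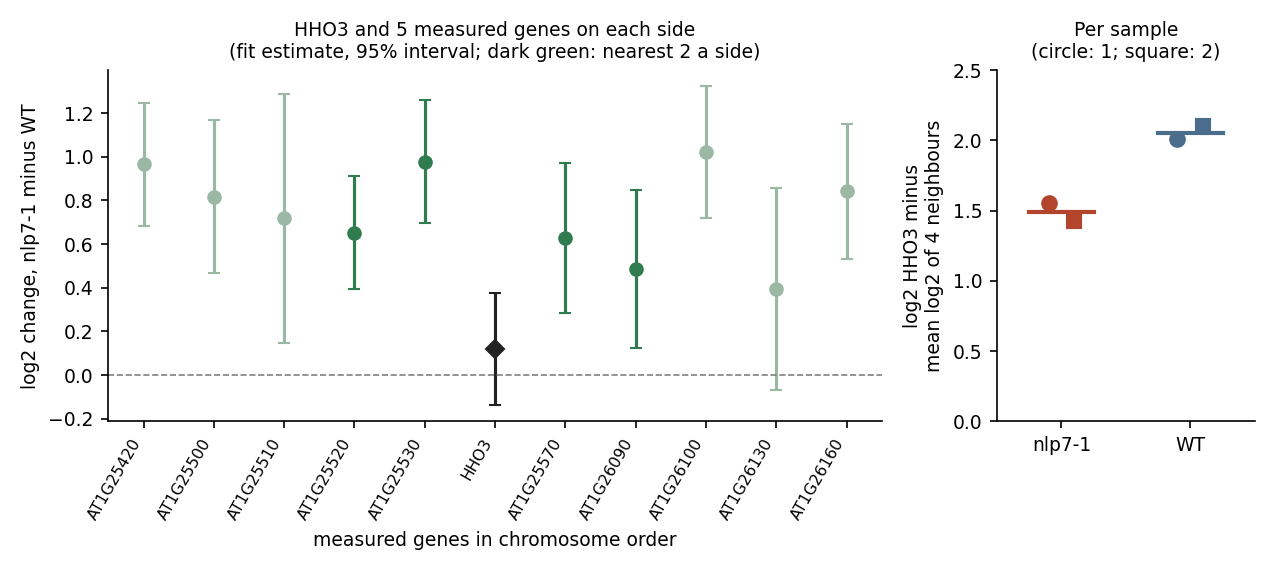
Left, log2 change (nlp7-1 minus WT) from the limma fit with 95% intervals for HHO3 (diamond) and 5 measured genes on each side in chromosome order, the nearest 2 a side in dark green. Right, log2 signal of HHO3 minus the mean log2 signal of those 4 neighbours in each sample (circle, replicate 1; square, replicate 2; line, mean), with nlp7-1 at 1.56 and 1.42 and WT at 2.01 and 2.10.

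Over the whole stretch, which earlier work on these data had delimited by its shift as AT1G20910 to AT1G27530, 193 genes were measured and had a median log2 change of 0.84, against -0.001 for the 7074 measured genes outside. HHO3, at place 137 of the 193, had the fourth lowest change. The 3 genes below it were AT1G26380 (-2.80), AT1G26250 (-1.28) and AT1G26420 (-0.33), at places 149, 145 and 150. These lie outside the 5 nearest measured genes, and were named after their values were seen. They were lower in both nlp7-1 samples, but none passed the test (limma adjusted p = 0.0509, 0.195 and 0.401, in that order). AT1G26380 and AT1G26250 varied widely between replicates. AT1G26380 had signals of 22.0 and 43.6 in nlp7-1, against 133 and 351 in WT. Both nlp7-1 signals lay below the filter signal of 59.4. The gene was therefore kept through its WT samples, and its log2 change rests on low mutant signals. AT1G26250 had 71.5 and 118 in nlp7-1, against 158 and 314 in WT. The next 3 above HHO3 were AT1G23390 (0.146), AT1G22890 (0.153) and AT1G25400 (0.196), all with overlapping genotypes and also named after their values were seen. AT1G25400, at place 131, lies just outside the 5 nearest measured genes. Only 10 of the 193 genes had a change at or below the upper end of the HHO3 interval. Of the genes outside the stretch, 71.9% had a lower change than HHO3. Because the stretch was delimited by these same changes, its median and the place of HHO3 in it are given as a description.

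**Figure D3:**
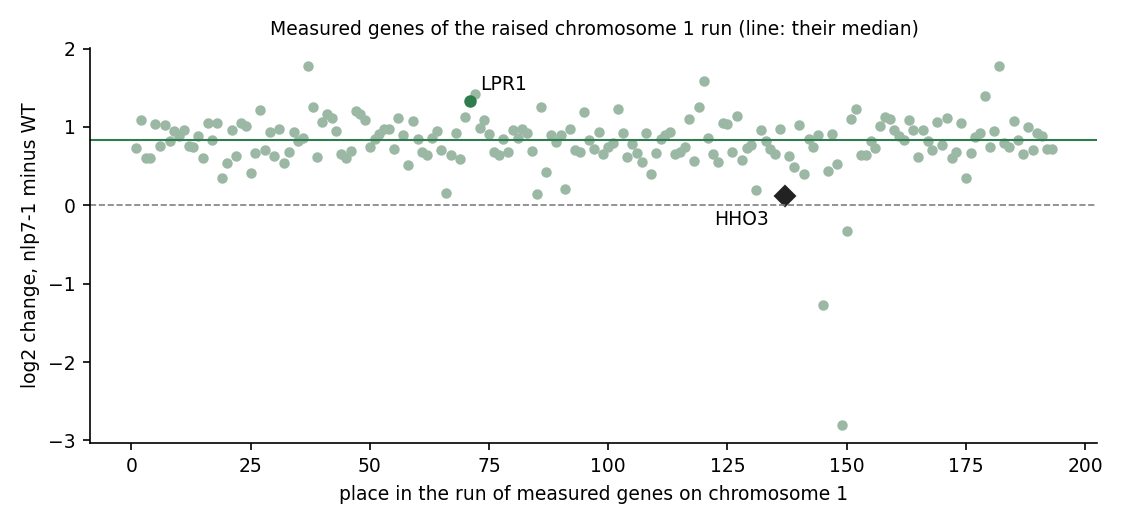
Log2 change (nlp7-1 minus WT) of the 193 measured genes of the chromosome 1 stretch by their place in gene order, with HHO3 as a diamond, LPR1 in dark green and the median of 0.84 as a line. HHO3 at 0.12 sits near 0, below all but 3 genes of the stretch.

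The rest of the family was covered in part. Of its 7 genes, 5 had a named probe set and 4 passed the filter, and 0 of the 4 passed the test, where 2.27% of all kept probe sets did. HHO5 (AT4G37180) had signals of 260 and 263 in nlp7-1, against 317 and 290.0 in WT. It was lower without overlap, an order shared in either direction by 44.1% of kept probe sets, with a log2 change of -0.22 ± 0.12 (SE; limma adjusted p = 0.515). HHO6 (AT1G49560) fell below the filter, at 43.4 and 58.8 in nlp7-1, against 54.2 and 37.3 in WT, and its genotypes overlapped. The family median of the 4 kept members was -0.09 on the log2 scale, against 0.00 over all kept probe sets. No probe set was annotated to HRS1 or HHO4 alone, and they were not used here.

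Few genes that act up- or downstream of HHO proteins had a probe set annotated to them alone. The lists of other GARP factors, NLP factors, nitrate assimilation, transport and signalling, and phosphate responses held 113 genes, of which 11 had a named probe set and 9 passed the filter. Of these 9, 1 rose and 0 fell by the limma test, where 2.27% of all kept probe sets passed. The 1 gene was LPR1, which lies in the chromosome 1 stretch delimited by its rise. In that stretch 109 of 193 measured genes (56.5%) passed. The median log2 change of the 9 genes was 0.09, against 0.00 over all kept probe sets. NRT2.1 and the SPX genes were not among them.

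For nitrate transport, 2 of 14 genes were kept and 0 passed. NRT1.4 (AT2G26690), which encodes a low-affinity nitrate transporter of leaf petioles, had signals of 243 and 233 in nlp7-1, against 168 and 165 in WT, and a log2 change of 0.51 ± 0.12 (SE; limma adjusted p = 0.119). Its genotypes did not overlap, but the adjusted p missed the threshold, and the change was 0.34 with a pseudocount of 100. NPF2.3, which encodes a root stele nitrate transporter, had 0.16 ± 0.30, with overlapping genotypes, and turned to -0.29 without WT replicate 2. NRT2.5, a high-affinity transporter gene of nitrogen-starved plants and a known target of HHO repression, fell below the filter, at 23.2 and 21.3 in nlp7-1, against 25.0 and 16.3 in WT.

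For nitrate assimilation, PGD1 and PGD3 of the pentose phosphate pathway were the 2 of 13 genes kept, and 0 passed. PGD1 had signals of 1969 and 1941 in nlp7-1, against 2124 and 2254 in WT (log2 change -0.16 ± 0.09), and PGD3 had a log2 change of 0.12 ± 0.13 (SE), which ran from 0.015 without WT replicate 2 to 0.23 without WT replicate 1. Of the signalling list, 1 of 20 genes was kept: NRG2, which encodes a positive regulator of nitrate signalling, had -0.065 ± 0.13 on the log2 scale, and from -0.15 to 0.015 with a sample left out (without WT replicate 1 and without WT replicate 2). None of the 9 NLP genes had a named probe set.

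For phosphate, 2 of 39 genes were kept, both encoding multicopper oxidases of the root response to low phosphate. LPR1 (AT1G23010) had signals of 189.7 and 158 in nlp7-1, against 78.4 and 60.0 in WT, and rose 2.52-fold (log2 change 1.34 ± 0.19, SE; limma adjusted p = 0.0284). LPR1 lies in the same chromosome 1 stretch as HHO3, at place 71, and unlike HHO3 it was above the median of that stretch. Its call was lost without nlp7-1 replicate 1 (adjusted p = 0.138) and without nlp7-1 replicate 2 (adjusted p = 0.0742), and its log2 change was 0.69 with a pseudocount of 100. LPR2, its relative outside the stretch, had a log2 change of 0.09 ± 0.15, with overlapping genotypes, and from -0.066 (without WT replicate 1) to 0.25 (without WT replicate 2). Among other GARP factors, 2 of 18 were kept and 0 passed: PHL2, a relative of PHR1, and MYBC1, a gene linked to freezing tolerance, had log2 changes of 0.09 ± 0.16 and 0.08 ± 0.12 (SE). With a sample left out these ran from -0.093 (without nlp7-1 replicate 1) to 0.28 (without nlp7-1 replicate 2) for PHL2, and from 0.012 (without WT replicate 1) to 0.15 (without WT replicate 2) for MYBC1.

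**Figure D4:**
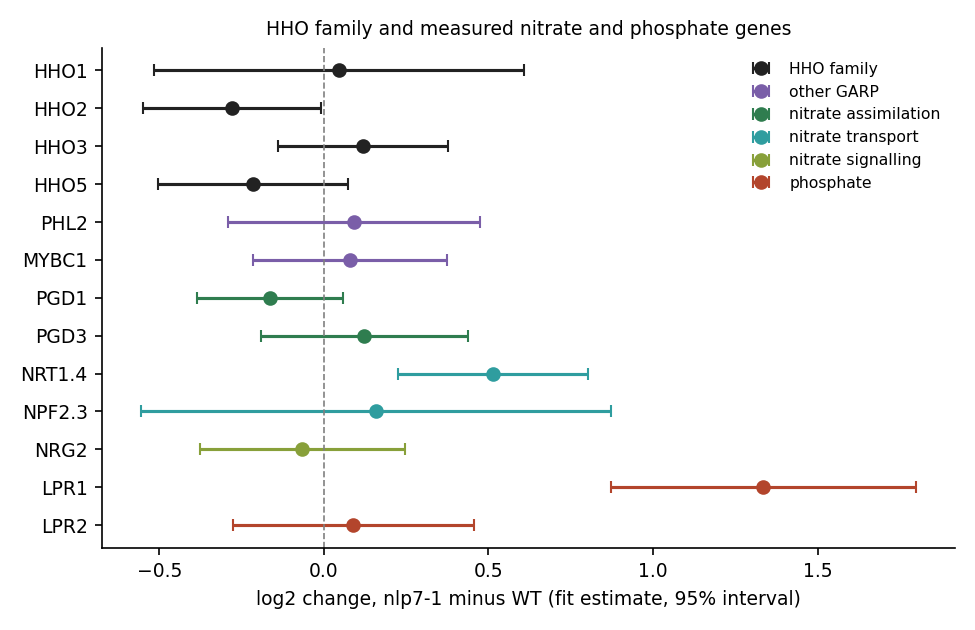
Log2 change (nlp7-1 minus WT, horizontal axis) from the limma fit, with 95% intervals, for the 4 kept members of the HHO family and the 9 kept genes of the nitrate, phosphate and GARP lists. LPR1 at 1.34 is the 1 gene past the test, and the intervals of HHO1, HHO3 and HHO5 include 0.

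The genes whose log2 signals followed each HHO gene most closely over the 4 samples were taken by Pearson correlation from 7317 named genes. Picked in this way, they share the order of the samples with that HHO gene by selection. With 4 samples such values are high for many genes, and r was at least 0.99 for 40 genes with HHO1, 60 with HHO2 and 29 with HHO3. The closest to HHO1 were UGT72E3, AT3G44510 and AT5G15320, all high in both replicate 1 samples. UGT72E3, a glycosyltransferase gene, had 125 and 99.7 in nlp7-1, against 123 and 96.4 in WT. The closest to HHO2 were AT1G71710, petA and AT4G33500, all lower in both nlp7-1 samples. The plastid gene petA, which encodes cytochrome f, had 539.6 and 529 in nlp7-1, against 708 and 710.0 in WT (limma adjusted p = 0.161). The closest to HHO3 were AT2G36200, AT4G01870 and AT2G41970, with small log2 changes of 0.27, 0.11 and 0.18. The limma test passed 0 of these 9 genes, where 2.27% of all kept probe sets passed. They were picked for likeness to genes that did not pass themselves, so nothing is read from this count.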

How the data were processed

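Per the submitters' processing notes, the deposited intensity values were made with MAS5 (version not given in the sources used here). They are linear signals per probe set, 1 array per sample, and their means after trimming 2% at each end were all 250.0, so the authors' values share a common level. Depth is not defined for arrays, and the number of arrays limits precision.

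Of 22810 probe sets, 64 controls were left out. Genes were named through the platform annotation and updated by gene identifier in the RefSeq gene table of TAIR10.1 (13436 of 13513 single-gene probe sets matched). The files name no genome build, so only gene order was taken from that table. Signals were taken to log2 with no pseudocount. The filter left out probe sets whose mean log2 was below the 40th percentile (equal to a signal of 59.4) and kept 13648. The test was limma 3.58.1 (R 4.3.3; lmFit and eBayes with trend), two-sided, with Benjamini-Hochberg adjustment over all kept probe sets, tested on simulated data beforehand. Figures were drawn in Python 3.11.15. Single values per sample were compared by exact permutation. The brightest probe set stood for a gene.

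Named are the members, the 4 neighbours of HHO3, measured family members, list members past the test or the 3 with the smallest p, and the 3 genes most like each member. The members, lists and chromosome stretch were chosen with earlier results of these data known. Alternatives were other filters, pseudocounts of 32 and 100, quantile normalization, median centring, no trend, the replicate number as a block, other sets of neighbours, and each sample left out. Promoter and protein sequences were not used here.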

Additional observations from a re-analysis of the deposited data

How the results depend on the processing

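HHO2 and HHO3 kept their direction and stayed short of the threshold under all 12 alternatives, with log2 changes from -0.29 to -0.22 and from 0.063 to 0.18, and adjusted p values from 0.148 to 0.920 and from 0.522 to 0.997. HHO1 changed sign with a sample left out (-0.20 to 0.29: -0.19 without nlp7-1 replicate 1, -0.20 without WT replicate 2) and ran from 0.024 to 0.045 otherwise. The other filters, no trend and the replicate block leave the log2 change of each HHO gene unaltered by design. Those settings bear on the adjusted p alone. HHO3 relative to its neighbours stayed negative under all 14 alternatives, from -0.68 (median of the neighbours) to -0.38 (pseudocount of 100), and from -0.63 to -0.50 with a sample left out. That sign goes with neighbours in a stretch delimited by its rise. Median centring and the limma fit leave this difference unaltered by design. The count of 310 probe sets past the test became 116 with no trend in the variance prior, 1290 with the replicate block, and 14 to 770 with a sample left out, where the spread comes from the other genotype alone. The phosphate list kept 0 to 1 calls with a sample left out, and the nitrate transport list had 1 with the replicate block (NRT1.4, adjusted p = 0.0186). The other lists had 0 under every alternative run. Replicate numbers are only numbers in the labels. The deviations of same-numbered samples correlated at r = 0.436 across kept probe sets, and the block passed none of the 3 HHO genes. AT1G25520 no longer passed with no trend (adjusted p = 0.0725), and AT1G25570 passed with the block (0.00750). PHL2 (-0.093 to 0.28), NPF2.3 (-0.29 to 0.60), NRG2 (-0.15 to 0.015) and LPR2 (-0.066 to 0.25) changed sign with a sample left out. With 2 arrays per genotype, a change of the size estimated for HHO2 did not reach the threshold, and no detection calls were used.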
